A study of Mus musculus with 70 samples.

Results

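RNA levels of 10 Fc receptor and Fc receptor-like genes were followed across 4 leukocyte populations sorted from mouse blood. The genes were Fcgr1, Fcgr2b, Fcgr3, Fcgr4, Fcer1g, Fcer2a, Fcmr, Fcgrt, Fcrl1 and Fcrl6, which are 10 of the 52636 genes in the count table. They were chosen by gene family, with earlier results of these libraries known. Those results had Fcrl6 called lower in Ly6C-high monocytes of SUS mice and Fcgr1 called higher in Ly6C-low monocytes of RES mice, both against CON mice. In these 2 comparisons, and for levels across cell types, values are therefore given as a description with no p-value. The mice were C57BL/6J, 7 to 8 weeks old. CSDS (chronic social defeat stress) mice met a CD-1 aggressor on each of 10 days, and were split by a social interaction test into susceptible (SUS) and resilient (RES) mice, while unstressed control (CON) mice were housed in pairs. Monocytes with high and with low Ly6C, B cells and T cells were then sorted from blood (the labels name brain as the tissue of origin). Before the sort, cells were incubated with an antibody that blocks the products of Fcgr3 and Fcgr2b.

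Fc receptors bind the constant part of antibodies and couple them to cells. The mouse IgG receptors encoded by Fcgr1 (CD64, of high affinity), Fcgr3 (CD16) and Fcgr4 (CD16-2) activate phagocytes and need the signalling chain encoded by Fcer1g, whereas the receptor encoded by Fcgr2b (CD32b) inhibits, and is the only classical IgG receptor of B cells. Fcer2a encodes CD23, the low-affinity IgE receptor, Fcmr the IgM receptor, and Fcgrt the heavy chain of the neonatal receptor that recycles IgG and albumin. Fcrl1 and Fcrl6 are members of the Fc receptor-like family, of which Fcrl1 is known from B cells. In GRCm38 with the GENCODE M21 genes, Fcgr2b (chr1:170958617-170976547), Fcgr4 (chr1:171018920-171029761), Fcgr3 (chr1:171051174-171064935), Fcer1g (chr1:171229572-171234365) and Fcrl6 (chr1:172596642-172602551) lie near each other on chromosome 1, where Fcmr also is (chr1:130865669-130880791). Fcgr1 (chr3:96282909-96293969) and Fcrl1 (chr3:87376387-87402934) lie on chromosome 3, Fcgrt on 7 (chr7:45092990-45103851) and Fcer2a on 8 (chr8:3681737-3694175).

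The table held raw read counts, and the total per library ranged from 19769835 to 67038231 over the 68 libraries used. Each cell type had 6 libraries per group, except for 4 CON libraries of Ly6C-low monocytes and 5 RES libraries each of B and T cells. The labels name no mouse, so p-values measure the spread between libraries. A library labelled RES B cells (number 52) carried T cell genes, with 412 CPM (counts scaled to library size) of Cd3e and 5.76 of Cd79a, and a library labelled RES T cells (number 70) carried B cell genes, with 1417 CPM of Cd79a and 0.143 of Cd3e. Both were left out, and values with both kept are given below. In the other libraries, the defining markers of each sorted population were found in every library of it. Genes of NK cells were also high in Ly6C-low monocyte libraries (290.5 to 1540 CPM summed over 6 genes, all 6 detected in each), and the summed genes of red cells had a higher median in stressed than in CON libraries of all 4 populations, as given beside the results. In T cells these sums ranged from 888 to 2834 CPM in CON (median 1479), 1645 to 4496 in SUS (median 2384) and 1683 to 4646 in RES libraries (median 1925).

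Each sorted population had its own set of receptors, which the plot of all members by cell type shows. Levels are CPM normalized by TMM over all 68 libraries. Among the IgG receptors, Fcgr1 averaged 153 CPM in Ly6C-high monocytes (range 73.3 to 341, n = 18) and 35.4 CPM in Ly6C-low monocytes (15.0 to 55.4, n = 16), so the ranges did not overlap. It was under 1 CPM in every B cell library and under 4 CPM in every T cell library. Fcgr3 had the same order, with 429 CPM in Ly6C-high (260.1 to 611) and 132 in Ly6C-low monocytes (97.6 to 164). Fcgr4 had the opposite order, with 245 CPM in Ly6C-low (110.4 to 373) and 20.3 in Ly6C-high monocytes (4.93 to 52.6), and at most 1.37 CPM in any lymphocyte library. The inhibitory Fcgr2b was found in 3 populations, at 238 CPM in Ly6C-high monocytes (132 to 442), 124 in Ly6C-low monocytes (75.2 to 162) and 95.3 in B cells (74.9 to 107). Neighbours in that order overlapped, and T cells were lower, at 1.43 CPM (0.124 to 4.599). Fcer1g was at 605 CPM in Ly6C-high (374 to 1196) and 471 in Ly6C-low monocytes (319.7 to 648), which overlapped, and under 16 CPM in every lymphocyte library.

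**Figure D1:**
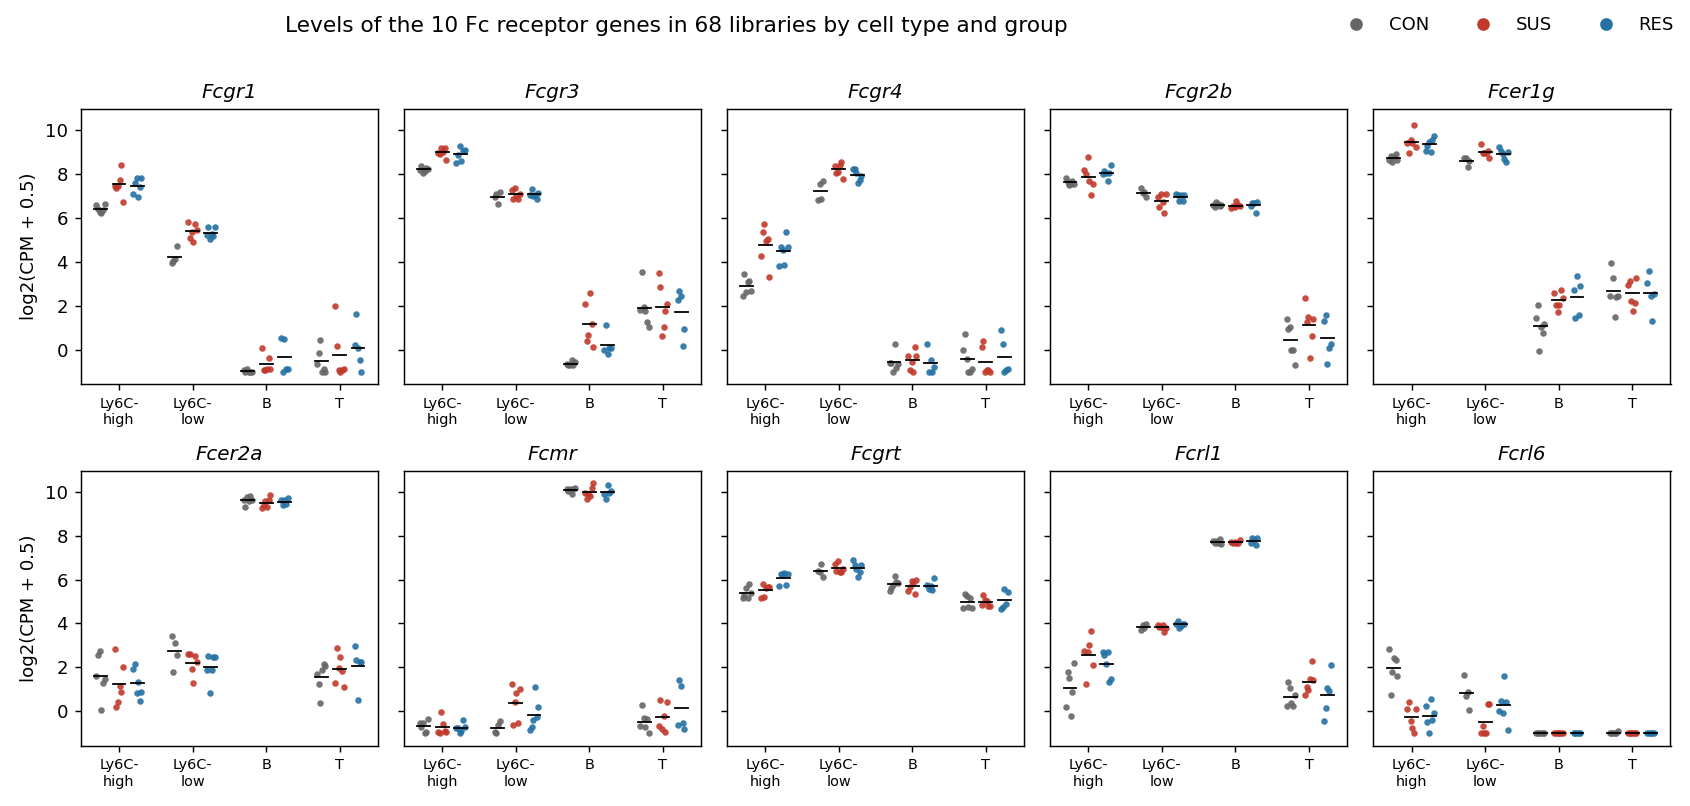
Levels of the 10 genes in each of 68 libraries as log2(CPM + 0.5), by cell type and by group (CON grey, SUS red, RES blue), with points for libraries and lines for group means of the log2 values. IgG receptors and Fcer1g were highest in monocytes, Fcer2a, Fcmr and Fcrl1 in B cells, and Fcgrt was found in all 4 populations.

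Fcer2a, Fcmr and Fcrl1 separated B cells from the rest. Fcer2a was at 756 CPM in B cells (609 to 917, n = 17) and at most 10.3 CPM in any other library. Fcmr was at 1038 CPM in B cells (805 to 1333) and at most 2.23 CPM elsewhere. Fcrl1 was at 212 CPM in B cells (190.04 to 239), but was also found in Ly6C-low monocytes within a narrow range, at 14.3 CPM (11.8 to 16.7, n = 16), while B cell markers in those libraries summed to 10.5 to 34.2 CPM over 5 genes. In Ly6C-high monocytes it was at 4.15 CPM (0.373 to 12.1), and in T cells at 1.63 CPM (0.244 to 4.38), and these 2 ranges overlapped. Fcgrt was the most even member, at 89.98 CPM in Ly6C-low monocytes, 53.5 in B cells, 51.9 in Ly6C-high monocytes and 32.1 in T cells, and neighbours in this order overlapped. Fcrl6 was the rarest. It had no read in any of the 17 B cell libraries, where a count of 0 allows up to 0.0636 to 0.124 CPM per library (3 counts, counting error only), and 1 read in the 17 T cell libraries. It reached 6.63 CPM in Ly6C-high and 2.65 CPM in Ly6C-low monocytes. Per kb of exons, the scale on which genes can be compared, Fcer1g led in Ly6C-high (692 CPM per kb, against 247 for Fcgr3, 59.1 for Fcgr1, 41.2 for Fcgr2b and 16.2 for Fcgr4) and in Ly6C-low monocytes (538, against 195 for Fcgr4, 76.3 for Fcgr3, 21.4 for Fcgr2b and 13.7 for Fcgr1). In B cells, Fcmr led with 598 CPM per kb, against 244 for Fcer2a, 59.5 for Fcrl1, 25.5 for Fcgrt and 16.5 for Fcgr2b.

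The 2 libraries left out bear on the RES levels of lymphocytes only. With both kept, the RES mean of Fcer2a fell from 752 to 625 CPM in B cells and rose from 4.26 to 138 CPM in T cells, and Fcmr went from 1014 to 844 CPM and from 0.871 to 179 CPM. Fcrl1 and Fcgr2b moved the same way in both cell types, and the other 6 members moved by less than 1 SD.

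The starts of 4 IgG receptor genes are shown because the RNA of 3 of them, the activating receptors, differed between groups, as described next. The windows run from 250 bases before to 50 after the RefSeq start (GRCm38.p6) and are written 5′ to 3′ on the gene's own strand. Capitals mark GAGGAA, the core of PU.1-type sites, on either strand (it reads TTCCTC on the other strand), and TTCNNNGAA, the letters of a gamma-activated site, which reads the same on both strands. The marked stretches did not overlap in any of these windows. Each window is given with its position.
Fcgr1 (chr3:96293920-96294219, minus strand): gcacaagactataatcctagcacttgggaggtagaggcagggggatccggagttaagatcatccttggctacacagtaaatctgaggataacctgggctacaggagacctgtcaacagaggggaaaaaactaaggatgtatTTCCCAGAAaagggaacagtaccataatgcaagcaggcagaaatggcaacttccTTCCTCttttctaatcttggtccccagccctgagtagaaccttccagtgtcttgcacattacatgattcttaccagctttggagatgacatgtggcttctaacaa
Fcgr3 (chr1:171059354-171059653, minus strand): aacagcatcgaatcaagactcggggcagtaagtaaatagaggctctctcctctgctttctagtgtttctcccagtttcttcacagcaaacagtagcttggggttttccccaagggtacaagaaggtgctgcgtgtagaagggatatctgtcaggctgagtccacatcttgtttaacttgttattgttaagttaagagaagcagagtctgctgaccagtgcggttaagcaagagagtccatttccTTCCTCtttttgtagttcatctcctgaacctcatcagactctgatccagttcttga
Fcgr4 (chr1:171018676-171018975, plus strand): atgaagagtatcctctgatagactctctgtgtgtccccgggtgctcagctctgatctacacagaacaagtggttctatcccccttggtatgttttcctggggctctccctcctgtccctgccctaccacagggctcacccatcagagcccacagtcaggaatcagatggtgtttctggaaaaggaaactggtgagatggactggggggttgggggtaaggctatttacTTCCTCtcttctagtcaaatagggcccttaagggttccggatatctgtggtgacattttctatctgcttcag
Fcgr2b (chr1:170976022-170976321, minus strand): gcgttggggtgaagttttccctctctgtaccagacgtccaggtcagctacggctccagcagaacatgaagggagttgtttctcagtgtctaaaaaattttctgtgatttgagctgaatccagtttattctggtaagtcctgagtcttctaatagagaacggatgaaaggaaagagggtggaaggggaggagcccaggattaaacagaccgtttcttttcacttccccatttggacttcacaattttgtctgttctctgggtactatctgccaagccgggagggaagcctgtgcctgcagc
TTCCTC stood upstream of the start in Fcgr1, Fcgr3 and Fcgr4, and Fcgr1 also held a TTCNNNGAA match. Neither motif was in the windows of Fcgr2b, Fcer1g, Fcer2a, Fcgrt or Fcrl6, while Fcrl1 held GAGGAA on both strands and Fcmr held TTCCTC. Of all 32851 RefSeq windows of this length, 28.3% held GAGGAA on either strand and 8.3% held TTCNNNGAA. All 10 members had a window, Fcgr3 with 2 starts and Fcer2a with 3. These matches describe letters and not binding.

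In Ly6C-high monocytes, RNA of the activating IgG receptors and of Fcer1g was higher in stressed mice, and Fcrl6 reads were fewer in each stressed library. The RES vs CON comparison was tested, since no member was named from it when the genes were chosen. It shares its CON libraries with the SUS vs CON comparison in which Fcrl6 was known. Neither the p of Fcrl6 nor the counts of members are therefore independent of the choice of members. Of the 9 members tested (Fcmr was filtered out as too low), 2 were called, which took an adjusted p under 0.05 together with a log2 fold change beyond 1 in either direction. Across all 16955 genes, 0.997% were called. Libraries did not overlap between RES and CON mice for 5 members, against 4.42% of all genes.

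Fcgr4 ranged from 4.93 to 10.3 CPM in CON mice (median 6.89), from 13.3 to 39.9 in RES mice (median 23.7) and from 9.52 to 52.6 in SUS mice (median 31.4). Each of the 6 RES libraries exceeded every CON library, as did 5 of 6 SUS libraries. RES mice differed by a log2 fold change of 1.68 (SE 0.32, adjusted p = 0.0138, edgeR's quasi-likelihood test). That of SUS mice was 2.05 (SE 0.33), given with no p-value, as are all values of SUS vs CON mice in these monocytes.

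Fcgr1 ranged from 73.3 to 100.1 CPM in CON mice (median 83.1), from 124 to 227 in RES mice (median 181) and from 106 to 341 in SUS mice (median 173). No stressed library overlapped with a CON library. Against CON mice, the log2 fold change was 1.05 in RES mice (SE 0.21, adjusted p = 0.0138, edgeR) and 1.17 in SUS mice (SE 0.21). The RES call rests on a fold change near the threshold. Without CON library 7, RES library 9 or RES library 18 the log2 fold change was 1.00, 0.98 and 0.98, so the call was lost although the adjusted p stayed between 0.0347 and 0.0470.

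Fcgr3 ranged from 260.1 to 330.2 CPM in CON mice (median 294), from 362 to 611 in RES mice (median 496) and from 396 to 586 in SUS mice (median 504). Fcer1g ranged from 374 to 476 CPM in CON mice (median 417), from 518 to 849.8 in RES mice (median 660.3) and from 488 to 1196 in SUS mice (median 679). For both genes, every stressed library was above every CON library. The differences were smaller than a doubling, with log2 fold changes in RES mice of 0.70 for Fcgr3 (SE 0.13, adjusted p = 0.0138, edgeR) and 0.64 for Fcer1g (SE 0.17, adjusted p = 0.0343, edgeR), which do not pass the fold threshold. In SUS mice they were 0.75 (SE 0.13) and 0.77 (SE 0.17). Of the 75-base windows of Fcgr3, 5.42% are also in Fcgr2b (1.63% of its windows). Reads that lie within these may be counted for 1 of the genes or for neither.

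The inhibitory Fcgr2b ranged from 181 to 228 CPM in CON mice (median 191), from 204 to 341 in RES mice (median 262) and from 132 to 442 in SUS mice (median 230.05). Both stressed groups overlapped with CON mice, and the SUS libraries lay on either side of them. RES mice differed by 0.43 on the log2 scale (SE 0.19, adjusted p = 0.1825, edgeR) and SUS mice by 0.31 (SE 0.19). As a ratio of CPM per kb within each library, the sum of Fcgr1, Fcgr3 and Fcgr4 was 6.16 ± 0.55 times that of Fcgr2b in CON mice, 7.98 ± 1.42 in RES mice and 10.5 ± 5.68 in SUS mice (SD, n = 6 each). The highest SUS value, 21.5, was that of library 14, and the medians were 6.16, 7.73 and 8.56. Of the Ly6C-high monocyte libraries, library 14 also had the highest sums of red cell genes (8988 CPM) and of Ly6C-low monocyte genes (863 CPM). The ratio is a description of unequal change and was not tested, and its size depends on the exon lengths used.

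**Figure D2:**
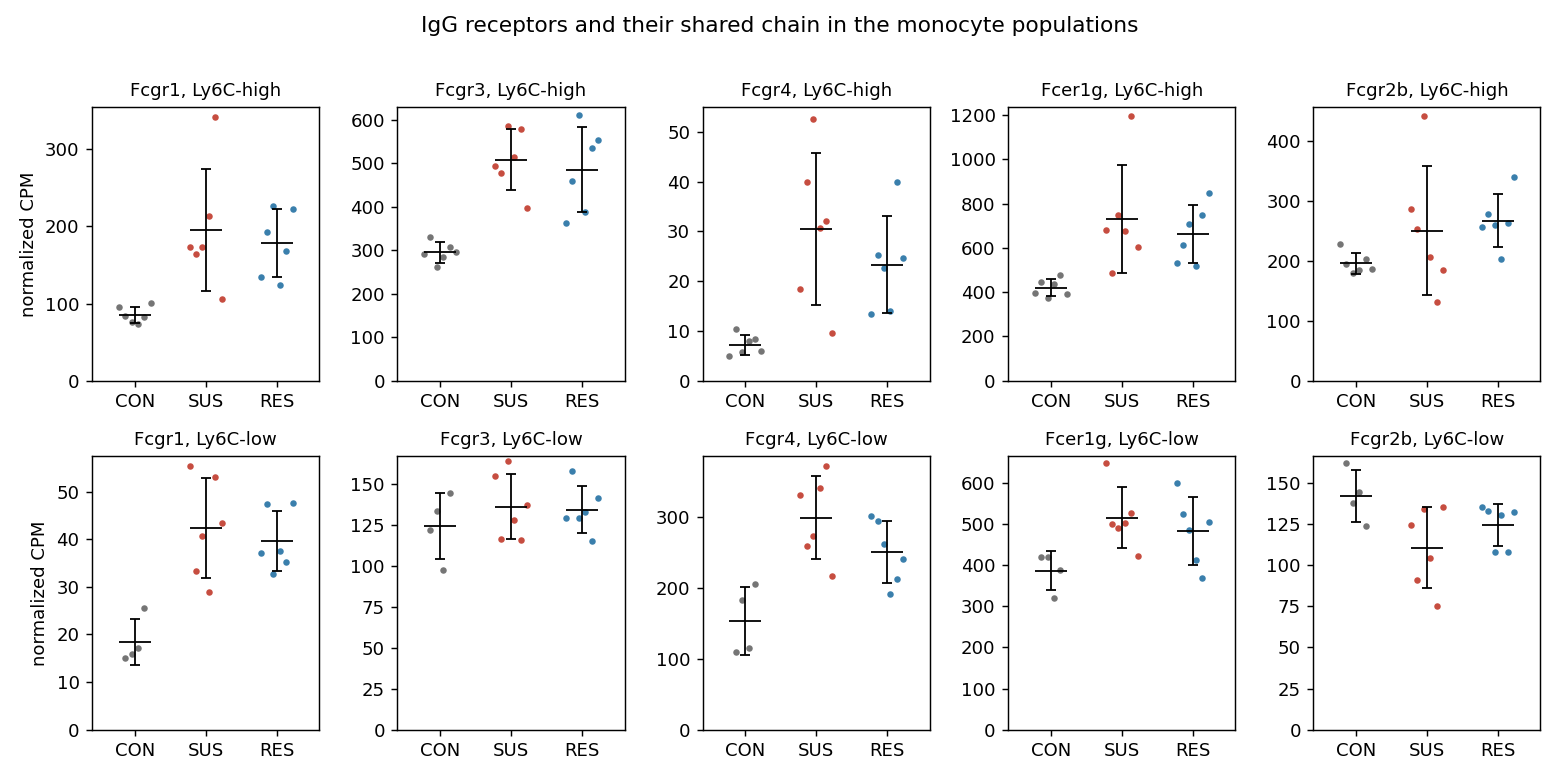
Normalized CPM of the activating receptors, Fcer1g and Fcgr2b in monocyte libraries of CON, SUS and RES mice, with 1 point per library and bars for the mean ± SD. Fcgr1 libraries of both stressed groups lie above all CON libraries in Ly6C-high (106 to 341 against 73.3 to 100.1 CPM) and in Ly6C-low monocytes (28.9 to 55.4 against 15.0 to 25.6 CPM), while Fcgr2b overlaps throughout.

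**Figure D3:**
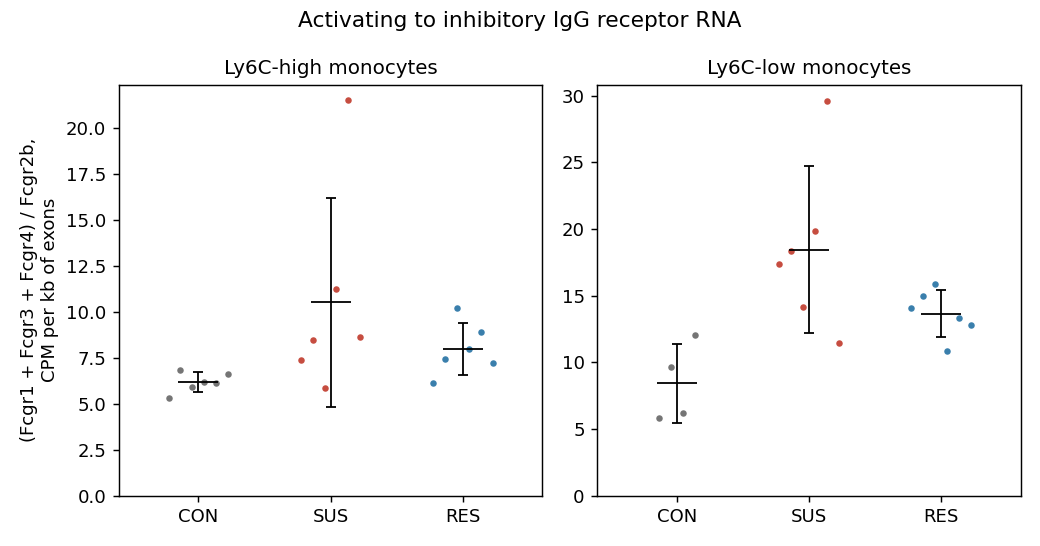
The summed CPM per kb of Fcgr1, Fcgr3 and Fcgr4 divided by that of Fcgr2b in each monocyte library, with 1 point per library and bars for the mean ± SD by group. CON libraries range from 5.30 to 6.84 in Ly6C-high and from 5.86 to 12.0 in Ly6C-low monocytes, and the highest SUS libraries reach 21.5 and 29.6.

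Fcrl6 ranged from 1.18 to 6.63 CPM in CON mice (46 to 230 reads), from 0 to 0.955 in RES mice (0 to 43 reads) and from 0 to 0.8504 in SUS mice (0 to 28 reads). All 12 stressed libraries were below all 6 CON libraries, and 1 library in each stressed group had no read. Fitted log2 fold changes were -3.17 in RES mice (SE 0.97, adjusted p = 0.0560, edgeR), which missed the threshold, and -3.30 in SUS mice (SE 0.97). Fold changes against so few reads depend on the count that the fit adds to each library. Fcrl1 was highest in B cells. In Ly6C-high monocytes it ranged from 0.373 to 4.05 CPM in CON mice (median 1.85). It ranged from 2.00 to 6.05 in RES mice (median 4.64) and from 1.88 to 12.1 in SUS mice (median 6.02). The groups overlapped, with log2 fold changes of 1.14 in RES mice (SE 0.53, adjusted p = 0.211, edgeR) and 1.67 in SUS mice (SE 0.53). The summed B cell markers were at 4.53 to 18.9 CPM in CON, 5.98 to 13.8 in RES and 5.23 to 9.87 in SUS mice, and the log2 fold change of Fcer2a was -0.54 in RES and -0.38 in SUS mice.

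Fcgrt, the neonatal receptor gene, was highest in RES mice. It ranged from 34.7 to 55.4 CPM in CON mice (median 40.0), from 34.7 to 54.2 in SUS mice (median 49.0) and from 51.0 to 77.0 in RES mice (median 74.7), so that 4 of 6 RES libraries were above every other library. For RES vs CON mice, the log2 fold change was 0.67 (SE 0.16, adjusted p = 0.0240, edgeR), under the fold threshold. That of SUS vs RES mice was -0.60 (SE 0.16), with an unadjusted p of 0.00118 from edgeR but an adjusted p of 0.800, and that of SUS vs CON mice was 0.07. No other member had an unadjusted p under 0.05 between SUS and RES mice, where log2 fold changes ran from -0.13 to 0.53 and 0 of 9 members (by edgeR and by DESeq2) and 0% of all genes (by edgeR) were called (with an unadjusted p under 0.05 for 620).

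In Ly6C-high monocytes of SUS against CON mice, 4 of 9 members passed both thresholds, with Fcgr1, Fcgr4 and Fcrl1 higher and Fcrl6 lower, and 4 members had libraries that did not overlap. The shares over all genes were 3.45% and 6.96%. Since Fcrl6 in this comparison was among the results known, these counts are a description. The median log2 fold change of the 9 members was 0.75 in SUS and 0.67 in RES mice, against -0.05 and -0.03 over all genes. Both comparisons share the 6 CON libraries.

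**Figure D4:**
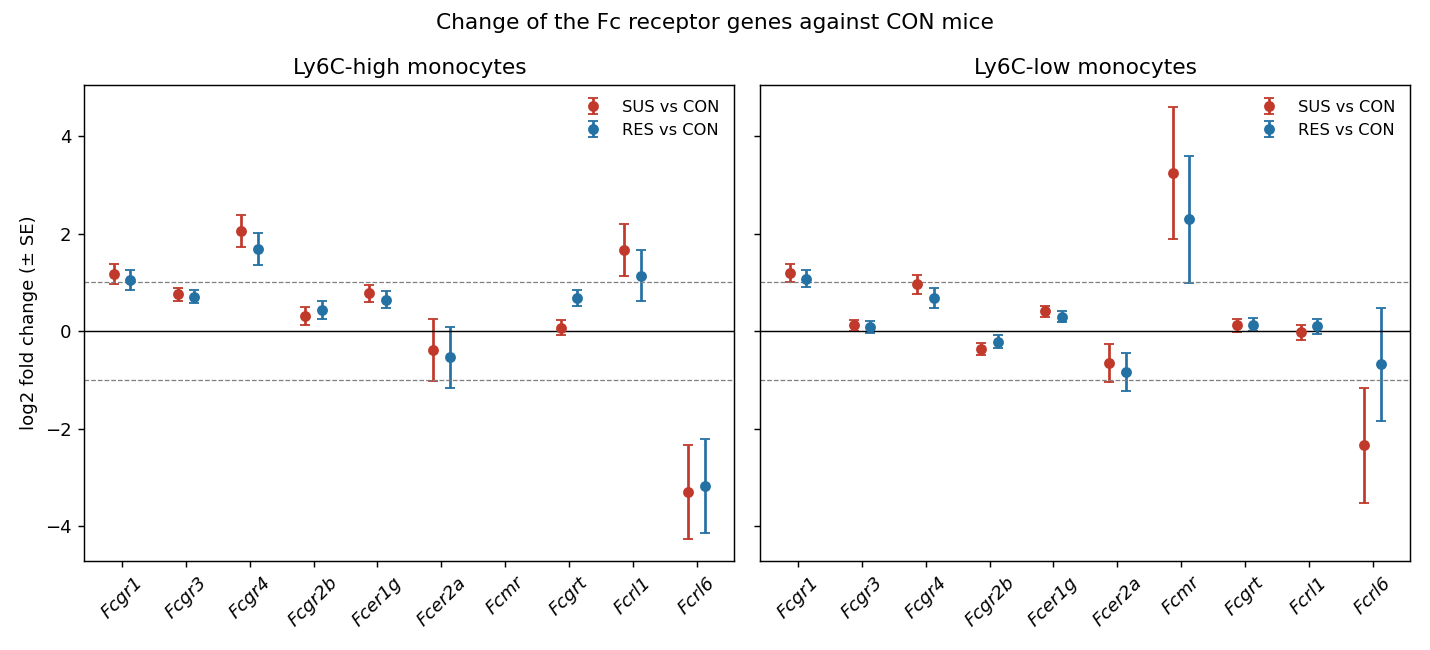
Log2 fold change of each member against CON mice, with bars for the SE, in Ly6C-high (left) and Ly6C-low monocytes (right), for SUS (red) and RES mice (blue). Dashed lines mark the fold threshold of 1 in either direction, and Fcmr was too low to be fitted in Ly6C-high monocytes.

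Markers of the sorted cells and of other cells moved with group in these libraries. The 4 marker genes of Ly6C-high monocytes themselves summed to 3922 to 5305 CPM in CON, 6134 to 9101 in SUS and 4338 to 7359 in RES libraries, without overlap between SUS and CON mice, and their part in the results was not tested. The summed level of 6 red cell genes ranged from 343 to 1215 CPM in CON, 1097 to 8988 in SUS and 1077 to 4348 in RES libraries, and all 6 had a positive log2 fold change in both stressed groups. With the mean log2 CPM of these genes as a covariate, none of the members was called in either comparison, and the RES log2 fold changes were 1.14 for Fcgr4, 0.51 for Fcgr1, 0.44 for Fcgr3, 0.18 for Fcer1g and -0.87 for Fcrl6. That covariate differs between the groups itself, and red cell RNA and stress cannot be told apart by it. Genes of Ly6C-low monocytes, where Fcgr4 is high, summed to 543 to 729.7 CPM in CON, 345 to 863 in SUS and 419 to 717 in RES libraries. The 5 genes of Cd209a monocytes, whose sum was also high in B cells, were at 281 to 500.2 CPM in CON, 118 to 199.5 in SUS and 227 to 469.7 in RES libraries, and their part in the results was not tested. Neutrophil genes (6) summed to 9.58 to 358 CPM in CON (median 202), 19.7 to 1179 in SUS (median 277) and 6.08 to 614 in RES libraries (median 235). These ranges overlapped, and the part of neutrophils in the results was not tested. In bulk libraries, fewer cells of a type and less RNA per cell cannot be told apart.

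In Ly6C-low monocytes, Fcgr1 was the member called in SUS mice. It was at 15.0, 16.0, 17.2 and 25.6 CPM in the 4 CON libraries, from 28.9 to 55.4 in SUS mice (median 42.0) and from 32.7 to 47.7 in RES mice (median 37.3). Every stressed library was above every CON library. In SUS mice the log2 fold change was 1.20 (SE 0.18, adjusted p = 0.00178, edgeR), and it was called with each library left out in turn, at 1.10 to 1.39. It was the 1 call among 10 members, and 0.0871% of 19521 genes were called. This comparison shares its 4 CON libraries with the RES vs CON comparison in which Fcgr1 was known, so neither its p nor this count is independent of the choice of members. With the red cell covariate it was 1.07 (adjusted p = 0.1105, edgeR), while the summed red cell genes were at 295 to 1259 CPM in CON and 859 to 2691 in SUS mice. With the mean of 6 NK cell genes as covariate, added after the data were seen, it was 1.18 (adjusted p = 0.000986, edgeR). For RES mice, the log2 fold change was 1.08 (SE 0.18), and Fcgr1 was again the 1 member past both thresholds, with 0.0154% of all genes called. That result was known when the members were chosen. Dendritic cell markers (6 genes) summed to 80.8 to 160.4 CPM in CON, 35.5 to 77.9 in SUS and 44.2 to 106 in RES libraries. The 5 genes of Cd209a monocytes summed to 754 to 2585 CPM in CON (median 1625), 473 to 983 in SUS (median 823) and 683 to 1564 in RES libraries (median 1298). The part of these cells in the results was not tested.

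Fcgr4 was at 110.4, 115, 184 and 206 CPM in CON mice, from 217 to 373 in SUS mice (median 303) and from 192 to 302 in RES mice (median 252). SUS libraries lay above all CON libraries, and RES libraries overlapped with them. On the log2 scale the difference was 0.96 in SUS mice (SE 0.20, adjusted p = 0.0661, edgeR), just outside both thresholds, and 0.68 in RES mice (SE 0.20). Without SUS library 33 it was 1.03 (adjusted p = 0.0291, edgeR), which would be called. Fcer1g was at 319.7, 388, 419 and 419.5 CPM in CON mice, 422 to 648 in SUS and 369 to 601 in RES mice, with log2 fold changes of 0.41 (SE 0.12, adjusted p = 0.168, edgeR) and 0.29 (SE 0.12). Fcgr2b was at 124, 138, 145 and 162 CPM in CON and 75.2 to 135 in SUS mice, a log2 fold change of -0.37 (SE 0.13, adjusted p = 0.295, edgeR), and at 108 to 136 in RES mice. Libraries did not overlap between SUS and CON mice for 3 members (1.98% of all genes), and between RES and CON mice for 1 (2.67%). The ratio of activating receptors to Fcgr2b per kb had medians of 7.91 in CON (n = 4), 17.9 in SUS and 13.7 in RES mice (n = 6 each).

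The remaining members were not called in Ly6C-low monocytes. Fcmr was at 0 to 0.238 CPM in CON (0 to 8 reads), 0.145 to 1.90 in SUS (6 to 71 reads) and 0.0549 to 1.67 in RES mice, and its log2 fold change of 3.24 in SUS mice (SE 1.36, adjusted p = 0.420, edgeR) rests on these few reads. Fcer2a ranged from 2.98 to 10.3 CPM in CON and 1.27 to 5.15 in RES mice, a log2 fold change of -0.84 (SE 0.39). Fcrl6 was at 0.536 to 2.65 CPM in CON, 0 to 0.773 in SUS and 0.0487 to 2.59 in RES libraries, with overlap between all groups. Fcgr3, Fcgrt and Fcrl1 had log2 fold changes between -0.03 and 0.13 in both comparisons. Of the 10 members, 0 were called by edgeR or DESeq2 between SUS and RES mice (by edgeR 0% of all genes, with 740 at an unadjusted p under 0.05), and the log2 fold changes were 0.12 for Fcgr1 (SE 0.16) and 0.28 for Fcgr4 (SE 0.18).

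Whether the changes differed between the monocyte populations was tested as an interaction over 24248 genes. Blood was stained with a single antibody panel for all populations, so both may hold libraries of the same mouse. The labels name no mouse, and the fit treated all libraries as independent. None of the 10 members was called for SUS mice (0.272% of all genes were) or for RES mice (0.099%). At an unadjusted p under 0.05 there were 2 members for SUS and 1 for RES mice. The Fcrl1 difference was 1.70 larger in Ly6C-high monocytes on the log2 scale for SUS mice (SE 0.54, adjusted p = 0.119, edgeR), Fcmr was -3.47 (SE 1.47, adjusted p = 0.251, edgeR), and for RES mice Fcgrt was 0.52 (SE 0.23, adjusted p = 0.342, edgeR). For Fcgr1 the difference was -0.01 for SUS and -0.04 for RES mice, with SEs of 0.83 and 0.85. These SEs come from a fit that also held the B and T cell libraries, so they do not describe the monocyte libraries alone. In fits within a cell type, Fcgr1 SEs against CON mice were 0.21 in Ly6C-high and 0.18 in Ly6C-low monocytes, for both stressed groups. A fit of the monocyte libraries alone also called 0 members, for SUS and for RES mice. Its values for Fcgr1 are not given here, so how large a difference those libraries allow is not known.

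In B cells, no difference with stress was detected for the receptors that these cells held at the highest levels. Fcer2a averaged 787 ± 96.6 CPM in CON, 728 ± 114 in SUS and 752 ± 63.8 in RES libraries, Fcmr 1084 ± 73.3, 1011 ± 191 and 1014 ± 169, and Fcrl1 210.04 ± 13.9, 209 ± 9.25 and 218 ± 21.1 (SD, n = 6, 6 and 5). Fcgr2b averaged 96.7 ± 4.74, 93.9 ± 7.42 and 95.5 ± 12.51 CPM, and Fcgrt 55.3 ± 9.09, 52.2 ± 9.03 and 52.9 ± 8.37 CPM in the same order. The log2 fold changes of these 5 genes lay between -0.11 and 0.05 in SUS and RES vs CON mice. By edgeR, no member of 7 tested was called in any comparison. The edgeR share was 0.00568% of 17620 genes for SUS vs CON mice and 0% for the others (with an unadjusted p under 0.05 for 602 genes against CON mice in SUS, 560 in RES, and 240 between stressed groups). DESeq2 called Fcgr3 for SUS vs CON mice. The share of all genes called by DESeq2 is not given here, and the edgeR share does not stand in for it.

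The low levels of Fcgr3 and Fcer1g in B cell libraries lay higher in stressed mice, although no difference was called. Fcgr3 ranged from 0.113 to 0.232 CPM in CON mice (3 to 7 reads), from 0.579 to 5.43 in SUS mice (14 to 131 reads), and was at 0.373, 0.4997, 0.542, 0.545 and 1.66 CPM in RES mice (10 to 70 reads). No stressed library overlapped with CON mice, a pattern found in 0.187% of all genes for SUS and 0.346% for RES mice. Fitted log2 fold changes, which rest on few CON reads, were 3.91 in SUS (SE 0.79, adjusted p = 0.152, edgeR) and 2.29 in RES mice (SE 0.76, adjusted p = 1.00, edgeR), and neither was called. DESeq2 did call it for SUS mice, with an adjusted p of 1.82e-05. Between SUS and RES mice, the log2 fold change was 1.62 (SE 0.75, adjusted p = 1.00, edgeR), and with library 52 kept it was 1.20. Fcer1g ranged from 0.452 to 3.54 CPM in CON and 2.81 to 6.13 in SUS mice, and was at 2.20, 2.51, 6.00, 6.85 and 9.69 CPM in RES mice, with log2 fold changes of 1.30 (SE 0.44, adjusted p = 0.999, edgeR) and 1.62 (SE 0.45, adjusted p = 1.00, edgeR). NK cells carry both genes, and the summed level of 6 NK cell genes in the same libraries was 3.15 to 7.31 CPM in CON, 15.0 to 39.5 in SUS and 9.95 to 23.6 in RES libraries, again without overlap with CON mice. Chil3, a gene of Ly6C-high monocytes, was at 0.406 to 2.82 CPM in CON, 2.01 to 13.7 in SUS and 1.78 to 5.89 in RES libraries. Red cell genes summed to 1335 to 7885 CPM in CON (median 2781), 3044 to 12799 in SUS (median 5566) and 3462 to 9704 in RES libraries (median 4652), and with these genes as covariate the SUS log2 fold change of Fcgr3 was 3.90 (adjusted p = 0.835, edgeR). The part of these cells in the result was not tested. The other myeloid receptors, Fcgr1 and Fcgr4, were under 1 CPM in every B cell library and were not tested.

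**Figure D5:**
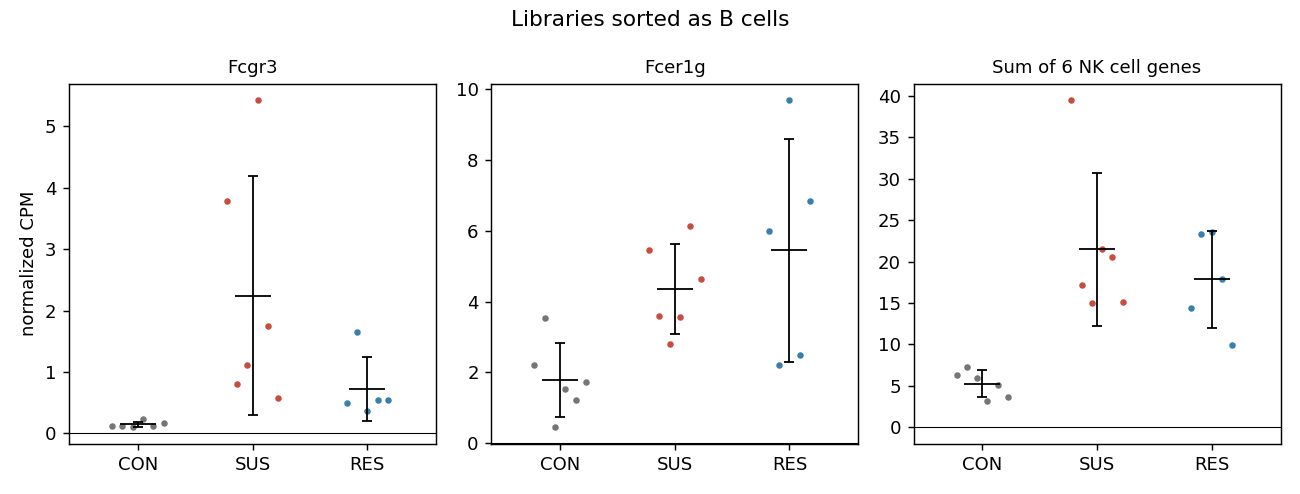
Normalized CPM of Fcgr3 and Fcer1g and the summed CPM of 6 NK cell genes in the libraries sorted as B cells, with 1 point per library and bars for the mean ± SD of CON, SUS and RES mice. Fcgr3 (at most 0.232 CPM) and the NK cell sum (at most 7.31 CPM) were lower in every CON library than in every stressed library.

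In T cells, Fcgrt was the only member above 20 CPM in any library, at 31.6 ± 6.39 CPM in CON, 31.0 ± 4.42 in SUS and 33.9 ± 10.2 in RES libraries (SD, n = 6, 6 and 5). Fcer1g averaged 6.82, 5.90 and 6.22 CPM and Fcgr3 3.94, 4.39 and 3.41 CPM in these groups. None of 9 members tested was called by edgeR or DESeq2, or had an unadjusted p under 0.05 from edgeR, in any comparison, against 0.0265% of 18860 genes called for SUS vs CON mice and 0% for the others (with an unadjusted p under 0.05 for 906 genes against CON mice in SUS, 775 in RES, and 451 between stressed groups).

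Genes that act with Fc receptors were counted in 3 lists. Of 27 genes of Fc receptor signalling, edgeR called 0 in each of the 12 comparisons within a cell type. Over all genes, 3.45% and 0.997% were called in Ly6C-high monocytes of SUS and RES vs CON mice, and at most 0.0871% in any other comparison, so a count of 0 among 27 genes says little. In Ly6C-high monocytes of RES mice, their median log2 fold change was 0.28, against -0.03 over all genes. Rac2, a GTPase of the phagocyte oxidase, had the smallest p (log2 fold change 0.64, SE 0.18, adjusted p = 0.0428, edgeR), followed by Was (0.53, SE 0.17, adjusted p = 0.0610, edgeR), an activator of actin assembly, and the adaptor Gab2 (0.40, SE 0.14, adjusted p = 0.0865, edgeR). In SUS mice, with no p given, the median was 0.23, and Rac2 was at 0.74, Was at 0.56 and the kinase Fgr at 0.50 on the log2 scale. Of 6 other receptors that use Fcer1g, 5 were tested in Ly6C-high monocytes, and Clec4e (Mincle, a receptor for microbial glycolipids) was the 1 past both thresholds in SUS mice, with a log2 fold change of 1.28 (SE 0.28). In RES mice it was 0.60 (SE 0.28, adjusted p = 0.214, edgeR) and that of Clec4n was 1.28 (SE 0.44, adjusted p = 0.0884, edgeR). Of 10 other Fc receptor family genes, 3 were tested there and 0 called. The high-affinity IgE receptor gene Fcer1a had no read in any Ly6C-high monocyte library.

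Genes whose pattern over the 68 libraries was nearest to a member were found by the root mean square difference of centred log2(CPM + 0.5) among 15017 protein-coding genes. For Fcer1g the nearest was Itgam (0.57), the CD11b chain of the complement receptor and one of the markers used for the sort. For Fcgr4 it was Ear2 (0.72), then Scnn1a (0.84) and Treml4 (0.88), a marker of Ly6C-low monocytes, and for Fcgr1 it was Gm9733 (0.59), then Ugt1a7c (0.65) and Mefv (0.69). For Fcer2a it was Ebf1 (0.80), a transcription factor of B cells, then Mzb1 (0.86) and Ly6d (0.88). The nearest genes of Fcrl6, Ints6l (0.62), Hacd1 (0.64) and Parp8 (0.65), were not close, since the SD of Fcrl6 itself was 0.99. With a pseudocount of 0.1 CPM, none of the 3 named genes was among the 3 nearest of Fcer2a or of Fcrl6, and with 1 CPM, Ebf1 and Ly6d stayed for Fcer2a and Hacd1 for Fcrl6. The distances span 4 cell types and were not tested.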

How the data were processed

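Leukocytes were sorted by FACS and their RNA sequenced after ribosomal depletion in a stranded kit, in 70 libraries. According to the methods, the authors aligned the reads with HISAT2 (mm10 build) and used htseq-count for genes. They deposited raw counts per Ensembl gene, without normalization. Whether reads were counted by strand and how duplicates were treated is not given in the sources used here. The antisense gene Gm38204 overlaps 2.68% of the exonic bases of Fcgr2b, where reads may be counted for either gene or for neither.

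Groups and cell types were taken from the sample labels, and symbols and positions from GENCODE M21 (GRCm38). The members and gene lists were chosen with earlier results of these data known. Libraries 52 and 70 were left out. In R 4.3.3 with edgeR 4.0.16, CON, SUS and RES libraries of 1 cell type went into 1 fit after filterByExpr and TMM (quasi-likelihood, robust), with Benjamini-Hochberg adjustment over all genes tested and the study's thresholds (adjusted p under 0.05, absolute log2 fold change above 1). Interactions came from a fit of 12 group means. Each SE was taken as the size of the log2 fold change over the root of its F statistic. Levels use TMM over 68 libraries and so are scaled otherwise than the fits. Levels of all 10 members are given in each cell type, some as an upper limit. In a comparison, a log2 fold change is printed for members called or with an unadjusted p under 0.05, and others by range or where a result needs them. For pathway lists, called genes or the 3 of smallest p are named. Reads carried no counted molecular identifiers, so limits cover counting error only. The fits were tested on simulated data. Alternatives were DESeq2 1.42.0, its size factors, no filter, 2 groups only, removal of mitochondrial, red cell and 2 abundant RNA genes, a red cell covariate, both left-out libraries kept, each library left out, and other pseudocounts. An NK cell covariate was chosen after seeing the data. For the interactions, the alternatives were the monocyte libraries alone, DESeq2's size factors and each monocyte library left out.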

Additional observations from a re-analysis of the deposited data

Results flagged for a closer look

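Of 115 groups of libraries with any read of a member, 11 held a library far from the rest of its group by Dixon's test at the 95% level. In normally distributed values chance flags about 1 in 20 groups. CPM values near 0 are skewed, so this rate does not apply to them, and the number of flags is only a description. In Ly6C-high monocytes of SUS mice, library 14 had 1196 CPM of Fcer1g against at most 748 in the others, and library 8 had 0.467 CPM of Fcmr against at most 0.171. In Ly6C-low monocytes of RES mice, library 28 stood out for Fcrl6, at 2.59 against at most 0.880 CPM, and for Fcmr, at 1.67 against at most 0.633 CPM. In B cells, RES library 40 had 1.66 CPM of Fcgr3 against at most 0.545, and CON library 44 had 0.696 CPM of Fcgr4 against at most 0.153. In T cells, CON library 56 had 11.0 CPM of Fcgr3 (next 3.35), SUS library 54 had 3.52 CPM of Fcgr1 (next 0.639), RES library 58 had 2.59 CPM of Fcgr1 (next 0.657), SUS library 66 had 4.38 CPM of Fcrl1 (next 2.27), and CON library 68 held the only read of Fcrl6, at 0.0412 CPM.

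In the 2 libraries left out, 8 levels were above the highest CON library of the labelled cell type, on a scale that includes both. Library 70, labelled RES T cells, had 1068 CPM of Fcmr, 804 of Fcer2a, 206 of Fcrl1, 86.9 of Fcgr2b and 48.1 of Fcgrt, against at most 0.715, 4.07, 2.03, 2.18 and 40.2 CPM. Library 52, labelled RES B cells, had 4.74 CPM of Fcer1g, 2.15 of Fcgr3 and 0.142 of Fcgr1, against at most 3.44, 0.229 and 0.0449 CPM.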

How the results depend on the processing

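None of the members' log2 fold changes that were recorded under the alternatives reversed. Several that the text prints were not recorded there. Among them are those of Fcgr2b, Fcgrt and Fcer2a for SUS vs CON mice in Ly6C-high monocytes. Those between SUS and RES mice in Ly6C-low monocytes and the Fcgr1 interactions are others. With the red cell covariate, 0 members were called in each of the 4 comparisons of monocytes with CON mice, in place of 4 (SUS) and 2 (RES) in Ly6C-high and 1 and 1 in Ly6C-low monocytes. Over all genes, this covariate left 1 and 0 calls in Ly6C-high monocytes. With DESeq2's size factors in edgeR, 1 member was called in Ly6C-high monocytes of RES mice, since the log2 fold change of Fcgr1 came to 0.98. With DESeq2, 1 member, Fcgr3, was called in B cells of SUS vs CON mice, and Fcgr1 gave way to Fcrl6 (log2 fold change -3.23, adjusted p = 0.00385) in Ly6C-high monocytes of RES mice. The shares of all genes called by DESeq2 are not given here.

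With each library left out in turn, 2 to 4 members passed in SUS and 1 to 3 in RES mice against CON mice for Ly6C-high monocytes, and 1 to 2 in SUS and 0 to 1 in RES mice for Ly6C-low monocytes. In the first, Fcgr4 passed each time, and Fcgr1 each time except without SUS library 14 (log2 fold change 0.90). Fcrl6 was lost without CON library 1, SUS library 8 or SUS library 11 (-3.06, -3.18 and -3.09), and Fcrl1 without 8 of the 18 libraries. Its call was also lost with DESeq2's size factors in edgeR (1.59), without the low-count filter (1.65), with 2 groups fitted alone (1.65) and with the red cell covariate (0.84). In RES mice for Ly6C-low monocytes, Fcgr1 was lost without CON library 21, 24 or 29 or RES library 23 or 34, at 0.98 to 1.05. In Ly6C-high monocytes of RES mice, Fcrl6 was called without RES library 12 (-3.59) or SUS library 14 (-3.19), and with RES and CON libraries fitted alone (-3.20, adjusted p = 0.0201). B cells, T cells and both interactions gave 0 member calls with each library left out. No paired analysis was possible because replicate numbers are not shared between groups. DESeq2's size factors kept 120 of 120 mean levels within 1 SD, and TMM within cell types 101. The depth limits Fcrl6, Fcmr in monocytes and Fcgr3 in B cells to few reads.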
